A study of Mus musculus with 8 samples.

Results

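The growth regulator Myc and 8 genes that bring nutrients into the cell or first use them are described here, out of 15653 genes in the count matrix: Myc, Tfrc, Slc7a5, Slc3a2, Slc2a1, Slc2a3, Slc38a2, Odc1 and Hk2. They were chosen by symbol and all 9 are in the matrix. The cells were double-negative (DN) thymocytes, which carry neither CD4 nor CD8, profiled by 5′ single-cell RNA sequencing with matched T cell receptor libraries. Knock-in (KI) mice carried a form of the kinase GSK3β with the regulatory serine Ser389 changed to alanine, and wild-type (WT) mice were C57BL/6J. The 4 groups were KI DN4, WT DN4, KI DN3 and WT DN3, where DN4 cells were sorted as CD44-negative and CD25-negative and DN3 cells as CD44-negative and CD25-positive. Cells bearing MHC class II, CD11b, CD4 or CD8 were removed on beads before the sort. The age and number of the mice and the breeding of the knock-in are not given in the sources used here.

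Each group had 1 expression library, so no replicate error exists and no test was made. Every interval below is a 95% interval of counting error only. The libraries held 2577 cells in KI DN4, 1477 in WT DN4, 3298 in KI DN3 and 2885 in WT DN3. The median cell had 9345 molecules counted by unique identifier (UMIs) in KI DN4, 7121 in WT DN4, 5495 in KI DN3 and 5927 in WT DN3, and 54 barcodes occurred in more than 1 library. Levels are UMIs scaled to the total of the library or cluster (CPM). A gene at 20 CPM or more on either side counted as measured, and as called if the 2 sides lay 2-fold or more apart. Il2ra, which encodes CD25, was at 3.75 CPM in KI DN4, 3.84 in WT DN4, 425 in KI DN3 and 478 in WT DN3, and the erythroid markers summed to at most 0.461 CPM in any library. Gsk3b, whose sequence the knock-in alters, was at 74.2 CPM in KI DN4 against 93.8 in WT DN4, and at 90.6 in KI DN3 against 107 in WT DN3.

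At the DN3 stage a thymocyte that has made a working T cell receptor β chain assembles the pre-T cell receptor and, on its signal, grows and divides rapidly. Myc is a transcription factor that raises ribosome production and metabolism during that growth. Its activity goes with surface CD71, the transferrin receptor encoded by Tfrc, and CD98, the amino acid transporter made of Slc7a5 and Slc3a2, both widely used as marks of growing thymocytes. GSK3β can phosphorylate MYC protein and so mark it for breakdown, a step that mRNA counts do not read.

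Promoters in the RefSeq table (GRCm38.p6) were found for 6 of the 9 genes, with 7 start sites in all. Those of Myc, Slc7a5 and Slc2a3 are not used here. MYC binds the E-box CACGTG and, less tightly, CACGCG. On either strand of the window from 250 bases before to 50 after the start, CACGTG was in 0 of the 7, and in 7.15% of all 32851 promoters. CACGCG was in Odc1 and in both Tfrc promoters, and in 9.27% of all promoters. The Odc1 and Tfrc stretches that hold it are shown because these are the members in which it was found, with its letters in capitals, on either strand. The Slc38a2 stretch is shown because this gene was called apart in both genotype comparisons. Its capitals mark the GC box GGGCGG, read from the other strand, which was in 35.7% of all promoters. Each of the 6 genes had the GC box in a promoter, so it is not particular to Slc38a2. Matches to it within the Odc1 stretch are left in lower case. The amino acid response motif TGATGNAA was in 0 of the 7 and in 3.97% of all. None of the matches shown overlaps another of these motifs. All are given 5′ to 3′ on the gene's strand and end before the RefSeq start.
Odc1, chr12:17544673-17544792, plus strand: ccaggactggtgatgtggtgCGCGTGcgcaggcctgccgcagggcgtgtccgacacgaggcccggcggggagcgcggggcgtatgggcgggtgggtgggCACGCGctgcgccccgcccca
Tfrc, chr16:32608736-32608855, plus strand: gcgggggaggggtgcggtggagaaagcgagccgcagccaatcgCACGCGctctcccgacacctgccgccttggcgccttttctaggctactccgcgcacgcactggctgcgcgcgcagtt
Slc38a2, chr15:96699739-96699888, minus strand: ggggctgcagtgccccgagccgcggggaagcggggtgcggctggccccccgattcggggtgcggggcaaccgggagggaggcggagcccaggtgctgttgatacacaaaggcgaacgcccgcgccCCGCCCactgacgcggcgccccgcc
These letters describe the windows and say nothing of binding in these cells.

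The 10 deposited clusters were the units for levels by cell type, and since they were made from the same cells, cluster levels are a description with no test. Clusters 0 and 1 carried all 7 markers of DN3 cells before β-selection at 2-fold or more above the rest, and separated the genotypes, so their sum is used. Cluster 2 had 5 of 7 γδ T cell markers and 4 of 5 mature T cell markers raised, with 1 γδ marker (Maf) and 2 mature T markers (Ccr7 and S1pr1) among its top 10 genes, cluster 4 had 7 of 10 cycling markers, and cluster 5 had 5 of 8 markers of NK and NKT cells. Cluster 3 was led by Cd8b1 and cluster 6, found in DN3, by Ung. Clusters 2 and 5 held 21.5% of UMIs in KI DN4 against 32.7% in WT DN4, and clusters 3 and 4 held 74.8% against 63.6%. By cells, cluster 2 was 37.9% of KI DN4 against 40.3% of WT DN4, cluster 5 was 12.7% against 21.9%, cluster 3 was 29.8% against 16.4%, and cluster 4 was 15.3% against 17.0%.

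Myc (GRCm38 chr15:61985391-61990374, plus strand), the regulator, was detected in every cluster and was lowest in cluster 2. Pooled over libraries it stood at 206 CPM in cluster 8, 195 in cluster 9, 154 in cluster 6, 145 in cluster 0, 141 in cluster 1, 132 in cluster 3, 120 in cluster 4, 114 in cluster 5, 33.0 in cluster 7 and 15.5 in cluster 2. Neighbours in this order had overlapping intervals except clusters 3 and 4, clusters 5 and 7, and clusters 7 and 2. Cluster 8 held 88 cells with a median of 1664.5 UMIs, and by UMIs per cell it ranked 9 of 10, while clusters 4 and 3 ranked first with 2.69 and 2.41 Myc UMIs per cell. In cluster 2 Myc was at 15.4 CPM in KI DN4 and 15.1 in WT DN4, so the low level was seen in both libraries. The pooled order mixes stages: within DN3, cluster 3 was above the largest pre-selection cluster, at 219 CPM against 145 in cluster 0 for KI and at 175 against 141 in cluster 1 for WT. Myc UMIs in DN4 came from clusters 3 and 4 for 89.0% in KI and 81.7% in WT.

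Slc7a5 (chr8:121881150-121907694), the light chain of CD98 that carries leucine and other large neutral amino acids, had a different order. Apart from the shallow cluster 8, at 663 CPM, it was highest in cluster 1 (229 CPM), cluster 6 (181) and cluster 0 (168), and lowest in cluster 5 (21.5). Clusters 0 and 1 are mostly cells of 1 genotype each, and summed they had 165 CPM in KI DN3 against 233 in WT DN3 (log2 ratio −0.50). Slc3a2 (chr19:8706882-8723369), the heavy chain that brings the light chain to the surface, varied far less, between 149 CPM in cluster 9 and 335 in cluster 8. In cluster 5 Slc7a5 was at 29.0 CPM in KI DN4 and 15.1 in WT DN4, while Slc3a2 was at 212 in KI DN4 and 192 in WT DN4. In cluster 5 the heavy chain thus ranked 5 of 10 by CPM while the light chain ranked 10 of 10.

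The glucose transporters and the iron receptor had other orders over the clusters. Slc2a3 (chr6:122727809-122801640), which encodes GLUT3, was at 64.4 CPM in cluster 8, 22.4 in cluster 2, 12.5 in cluster 7 and 12.4 in cluster 5, and below 5 CPM in the other 6. Clusters 2 and 5 gave 59.7% of its UMIs in KI DN4 and 62.3% in WT DN4. Slc2a1 (chr4:119108711-119137983), which encodes GLUT1, ranged between 12.8 CPM in cluster 9 (8 UMIs) and 38.6 in cluster 8 (6 UMIs), and every pair of neighbours in its order overlapped. Some clusters further apart in that order did not overlap. Cluster 5 had 27.4 (21.8 to 33.9) and cluster 2 had 22.0 (19.0 to 25.3). Cluster 3 had 15.7 (14.1 to 17.4) and cluster 4 had 14.0 (12.6 to 15.45). Tfrc (chr16:32608920-32632794), on the chromosome of the edited Gsk3b and 5.456 Mb from it, was at 28.4 CPM in cluster 3 and 28.0 in cluster 4 against 11.04 in cluster 0 and 11.3 in cluster 1. It was also at 27.4 in cluster 7, 24.0 in cluster 9, 21.3 in cluster 2 and 20.9 in cluster 6. Cluster 5 had 13.4 and the shallow cluster 8 had 45.1.

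Odc1 (chr12:17544794-17551505), the rate-limiting enzyme of polyamine synthesis, was highest in cluster 3 (142 CPM) and cluster 4 (129 CPM) and lowest in cluster 2 (43.6 CPM). Hk2 (chr6:82725025-82774454), a hexokinase that traps glucose in the cell, was scarce everywhere, at 11.5 CPM in cluster 3 and 0.394 in cluster 0. Slc38a2 (chr15:96687392-96699730), the SNAT2 carrier of glutamine and other small neutral amino acids, stood at 177 CPM in cluster 1 and 84.6 in cluster 0, but these clusters are mostly WT and mostly KI cells. Within them its level went with the library: KI cells had 81.6 CPM in cluster 0 and 87.7 in cluster 1, against 179 in both for WT cells.

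**Figure D1:**
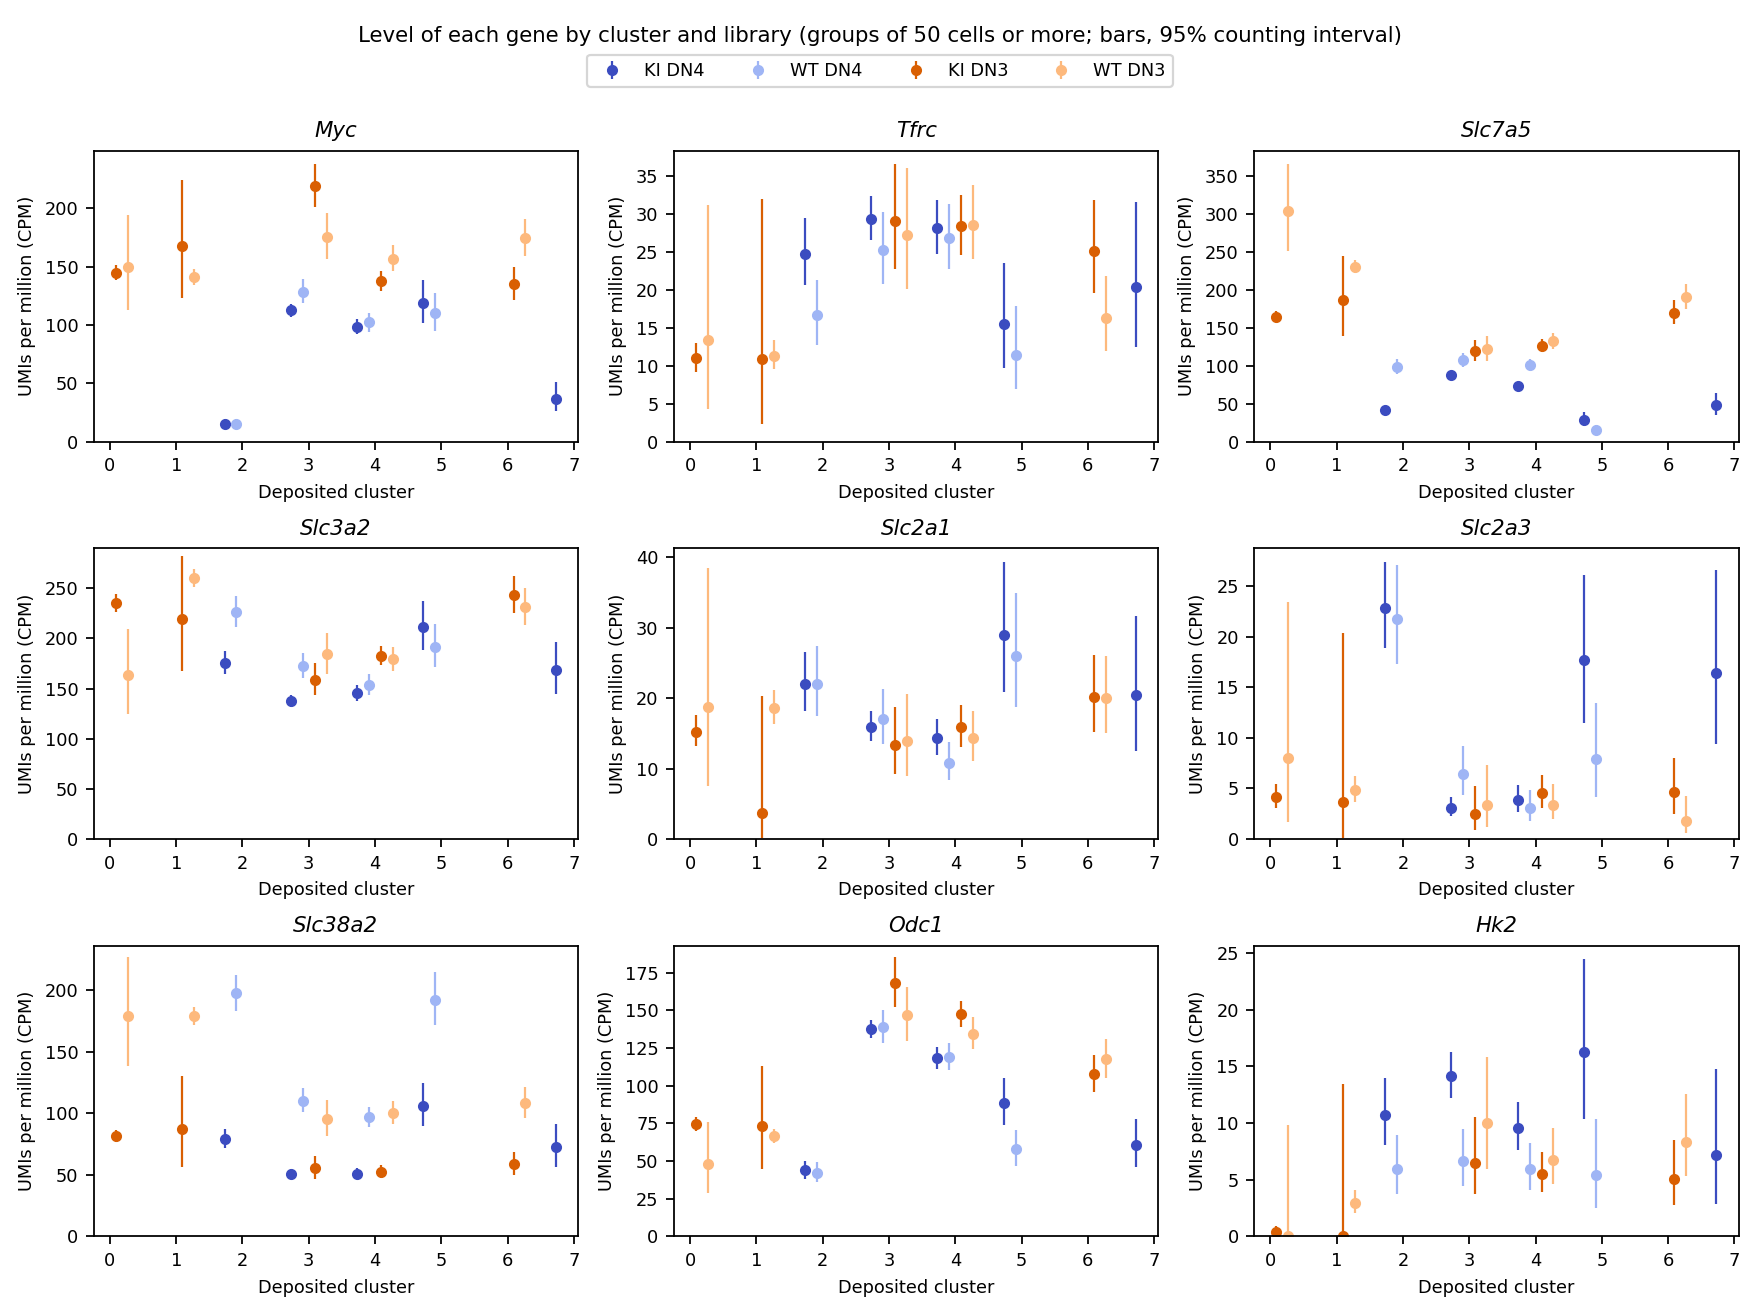
Level of each of the 9 genes (CPM, vertical axis) in each deposited cluster (horizontal axis), with a point per library of 50 cells or more and a 95% counting interval. Clusters 8 and 9 had no library of 50 cells. Slc38a2 is lower in the KI point of every pair, while Myc is near 15 CPM in both libraries of cluster 2.

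The first comparison asked how KI differed from WT at each stage, and Myc mRNA did not stand apart. Myc was at 89.96 CPM in KI DN4 and 88.5 in WT DN4 (log2 ratio 0.02, −0.07 to 0.12), and at 149.6 in KI DN3 and 152 in WT DN3 (−0.02, −0.09 to 0.04). Both intervals included 0. Within clusters, 3 of 8 intervals lay below 0, 1 lay above and the rest included 0. Cluster 3 had 113 CPM in KI DN4 against 129 in WT DN4 (−0.19, −0.33 to −0.05), and 219 in KI DN3 against 175 in WT DN3 (0.32, 0.12 to 0.53). Cluster 4 had 138 in KI DN3 against 157 in WT DN3 (−0.19, −0.33 to −0.05). In cluster 6 Myc was at 135 in KI DN3 against 175 in WT DN3 (−0.37, −0.57 to −0.17). None of these reached 2-fold. Over cells called G1 alone, Myc in DN4 was at −0.53, against 0.02 over all cells. Within DN4 it was at 0.03 in cluster 2 (−0.48 to 0.555) and 0.11 in cluster 5 (−0.20 to 0.42), and both intervals included 0. The part of the mix of clusters in the G1 value was not tested.

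Slc38a2 was the 1 member called apart, and it fell at both stages. It was at 59.1 CPM in KI DN4 against 136 in WT DN4 (log2 ratio −1.20, −1.29 to −1.11), and at 68.2 in KI DN3 against 146 in WT DN3 (−1.10, −1.19 to −1.02). Of 6 members at 20 CPM in DN4, 1 was called, where 0.662% of all 5592 genes were. Of 5 members in DN3, 1 was called, where 0.69% of 5797 genes were. Genes at least 2-fold lower numbered 33 in DN4 and 32 in DN3, and Slc38a2 was among the 10 shared by both lists, which make up 30.3% of the DN4 list and 31.3% of the DN3 list.

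The difference in Slc38a2 was seen in each kind of cell that could be compared. In DN4 it was at 79.5 CPM in KI against 198 in WT in cluster 2 (−1.31), 50.9 against 110 in cluster 3 (−1.12), 50.9 against 96.9 in cluster 4 (−0.93) and 106 against 192 in cluster 5 (−0.86). In DN3 it was at 81.7 in KI against 179 in WT in clusters 0 and 1 (−1.13), 55.4 against 95.7 in cluster 3 (−0.79), 52.2 against 100.3 in cluster 4 (−0.94) and 58.7 against 108 in cluster 6 (−0.88). All 8 intervals lay below 0, and no KI group reached the level of its WT partner. With 1 library per group, genotype cannot be told apart from the mice used or the handling of a library. Over 4141 genes measured in all 8 comparisons, 44 genes or 1.06% had every interval below 0 and 0.604% had every interval above 0. At 2-fold Slc38a2 was called in cluster 2, where 0.828% of genes were, in cluster 3 of DN4 (0.659%) and in clusters 0 and 1 (0.62%). It missed the call in clusters 4 and 5 of DN4, where 0.541% and 1.85% of genes were called, and in clusters 3, 4 and 6 of DN3, with 1.3%, 0.714% and 0.845%.

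As a share of cells the same order appeared. With each cell thinned to 2000 UMIs, a Slc38a2 UMI was found in 15.2% of 2432 KI cells against 31.0% of 2234 WT cells of clusters 0 and 1 in DN3 (unthinned 32.8% against 60.3%; median depths 4864 and 5446 UMIs; 37 and 21 shallower cells left out). In cluster 2 of DN4 the shares were 17.2% of 938 KI cells and 36.1% of 585 WT cells (unthinned 32.8% and 66.2%; median depths 4297.5 and 5252 UMIs; 38 and 10 cells left out). For a gene that sorted CD25-negative cells should lack, Il2ra, the thinned share in cluster 5 was 1 of 287 KI DN4 cells (0.348%) and 0 of 310 WT DN4 cells, for which a count of 0 allows 0.968% by the 3-count floor and up to 1.18% by the exact interval. In cluster 2 it was 9 of 938 KI DN4 cells (0.960%) and 9 of 585 WT DN4 cells (1.54%), also below the Slc38a2 shares. The sort had left little Il2ra in either DN4 library, at 3.75 CPM in KI and 3.84 in WT. Its low shares were thus set in advance and give no background level for Slc38a2. Trdc, a γδ T cell marker thinned alike, was found in 27.75% of KI and 27.66% of WT cells of clusters 0 and 1 in DN3. In KI this was above the Slc38a2 share of 15.2%. Median depths in cluster 5 were 3767.5 UMIs in KI and 4508 in WT.

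Other genes moved beside Slc38a2 in the same libraries. Junb, an AP-1 subunit gene of the immediate early response, was at 623 CPM in KI DN4 against 1525 in WT DN4 (−1.29) and at 1495 in KI DN3 against 3193 in WT DN3 (−1.09). Its within-cluster intervals were also below 0 in all 8 comparisons, with ratios of −1.44 to −0.26. Of the immediate early list, chosen after earlier results were known, 13 of 14 measured genes had an interval below 0 and 0 above in DN4 (median −0.56), where 37.9% of all genes were below and 25.1% above (median −0.05). In DN3, 12 of 16 were below and 3 above (median −0.38), where 27.5% of all genes were below and 27.7% above (median 0.00). In cluster 5, Slc38a2 was at −0.86 while Junb was at −0.26 and Fos at −0.12. The part of these genes in the Slc38a2 difference was not tested.

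The CD98 pair leaned the same way without a call at the level of the library. Slc7a5 was at 71.4 CPM in KI DN4 against 94.9 in WT DN4 (−0.41, −0.51 to −0.32) and at 150.0 in KI DN3 against 199 in WT DN3 (−0.40, −0.47 to −0.34). Slc3a2 was at 151 in KI DN4 against 181 in WT DN4 (−0.26) and at 213 in KI DN3 against 231 in WT DN3 (−0.12). Intervals of this kind lay below 0 for 37.9% of all genes in DN4 and 27.5% in DN3, so their position alone sets no gene apart. By cluster, Slc7a5 was called lower in cluster 2, at 41.2 CPM in KI DN4 against 98.5 in WT DN4 (−1.26, −1.51 to −1.01). It was on the other side in cluster 5 (0.94, 0.19 to 1.72, from 41 KI and 25 WT UMIs). In clusters 3 and 4 of DN3 it was at −0.02 and −0.07, with intervals that included 0. The Slc7a5 difference was thus uneven over cell types, and whether clusters differ from each other was not tested.

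Tfrc, Odc1 and the glucose transporters were not called over whole libraries. Tfrc was at 27.3 CPM in KI DN4 against 22.6 in WT DN4 (0.27, 0.09 to 0.45) and at 19.7 in KI DN3 against 17.3 in WT DN3 (0.19, −0.01 to 0.38). Odc1 was at 111 in KI DN4 against 99.99 in WT DN4 (0.15) and at 109 in KI DN3 against 94.0 in WT DN3 (0.21). Intervals above 0 were found for 25.1% of all genes in DN4 and 27.7% in DN3. Slc2a1 was at 17.3 in KI DN4 against 17.4 in WT DN4 and at 15.7 in KI DN3 against 17.4 in WT DN3. Slc2a3 was at 7.83 in KI DN4 against 9.20 in WT DN4 and at 4.15 in both DN3 libraries. Both glucose transporters had intervals that included 0 at each stage. Within clusters, Tfrc was at 24.8 in KI against 16.7 in WT in cluster 2 (0.57, 0.12 to 1.03) and at 25.2 against 16.3 in cluster 6 (0.63, 0.07 to 1.20), and its other 6 intervals included 0. Odc1 was at 88.4 in KI against 58.0 in WT in cluster 5 (0.61, 0.21 to 1.01) and at 74.4 against 65.8 in clusters 0 and 1 (0.18, 0.04 to 0.31). Slc2a3 lay on both sides in DN4, at 3.103 in KI against 6.425 in WT in cluster 3 (−1.05, from 43 and 29 UMIs) and at 17.7 against 7.86 in cluster 5 (1.17, from 25 and 13 UMIs). Slc2a1 was at 15.0 in KI against 18.6 in WT in clusters 0 and 1 (−0.31, −0.60 to −0.03), its 1 interval of 8 away from 0.

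Hk2 was the 1 member whose whole-library intervals lay on opposite sides of 0 in DN4 and DN3. It was at 12.1 CPM in KI DN4 against 6.09 in WT DN4 (0.99, from 368 and 100 UMIs), and at 2.98 in KI DN3 against 4.90 in WT DN3 (−0.72, from 76 and 111 UMIs). Neither passed the level for a call. In DN4 its ratio was above 0 in clusters 2 (0.86), 3 (1.09), 4 (0.70) and 5 (1.58), each with an interval above 0. In DN3 the intervals of clusters 3, 4 and 6 included 0, and clusters 0 and 1 held 5 KI against 37 WT UMIs (−2.86, −4.56 to −1.51).

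**Figure D2:**
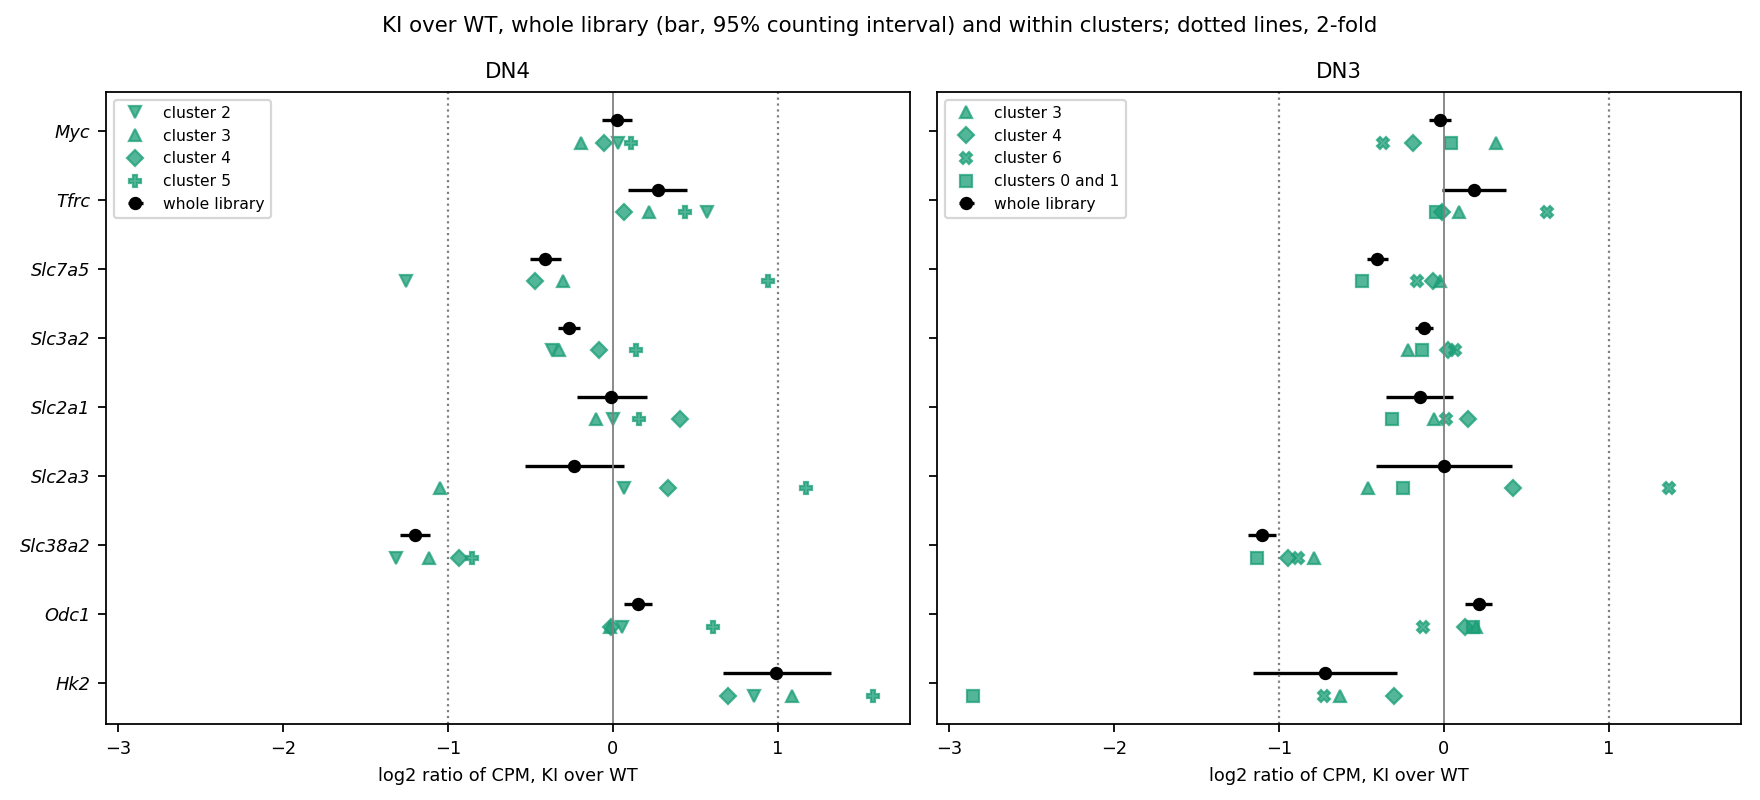
Log2 ratio of CPM, KI over WT (horizontal axis), for each gene (rows), in DN4 on the left and DN3 on the right; black points are whole libraries with 95% counting intervals and green symbols are clusters. Slc38a2 lies between −1.31 and −0.79 in every symbol, Myc lies between −0.37 and 0.32, and Hk2 is above 0 in DN4 and below 0 in DN3.

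Related genes from lists fixed by pathway help to place these values, and they were read as counts beside all measured genes, of which 37.9% had an interval below 0 and 25.1% above in DN4, and 27.5% below and 27.7% above in DN3. Of 9 measured amino acid transporters, members included, 7 had an interval below 0 and 0 above in DN4 (median −0.25) and 5 below and 1 above in DN3 (median −0.12). Slc38a1, the paralogue of Slc38a2, was at 125 CPM in KI DN4 against 149 in WT DN4 (−0.25) and at 143 in KI DN3 against 162 in WT DN3 (−0.18). Slc1a5, a glutamine exchanger, was at 90.7 in KI DN3 against 107 in WT DN3 (−0.24). The genes of the ATF4 response to amino acid shortage, which include Ddit3 and Psat1, were above 0 in 5 and below in 1 of 10 in DN4 (median 0.11), and above in 7 and below in 0 of 10 in DN3 (median 0.17). This was uneven over clusters. Within DN4 the median was 0.07 in cluster 2, 0.11 in cluster 3, −0.07 in cluster 4 and 0.365 in cluster 5. Within DN3 it was 0.11 in clusters 0 and 1, 0.125 in cluster 3, 0.05 in cluster 4 and −0.01 in cluster 6. Ddit3 was at 25.9 in KI DN4 against 21.2 in WT DN4, and at 32.6 in KI DN3 against 27.2 in WT DN3. Over whole libraries none of these genes but Slc38a2 reached 2-fold.

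Iron, polyamine and Myc lists held few large differences. In the iron list, 6 of 9 were below and 2 above in DN4 (median −0.16), and 6 of 10 below and 1 above in DN3 (median −0.18). Ftl1, the ferritin light chain, was at 561 CPM in KI DN4 against 916 in WT DN4 (−0.71) and at 358 in KI DN3 against 689 in WT DN3 (−0.95). Polyamine genes were above 0 in 5 of 10 and below in 2 in DN4 (median 0.10), and above in 5 of 11 and below in 2 in DN3 (median 0.05). Sms, spermine synthase, was at 175 in KI DN4 against 125 in WT DN4 (0.48), and Smox, spermine oxidase, was at 17.7 against 32.0 (−0.85). Of the 23 measured Myc targets of ribosome and nucleotide synthesis, 10 were above 0 and 4 below in DN4 (median 0.07), and 11 above and 5 below in DN3 (median 0.02). Clusters did not all share this lean. Within DN4 the median was 0.01 in cluster 2, 0.09 in cluster 3, −0.12 in cluster 4 and 0.08 in cluster 5. Within DN3 it was −0.11 in clusters 0 and 1, 0.105 in cluster 3, 0.01 in cluster 4 and −0.10 in cluster 6. The median of all genes in these comparisons lay between −0.055 and 0.033. Cad, which starts pyrimidine synthesis, was at 39.2 in KI DN4 against 31.0 in WT DN4 (0.34) and at 32.1 in KI DN3 against 21.2 in WT DN3 (0.59). Of 7 measured genes of the Myc network in DN4, 1 was above 0 and 3 below (median −0.10); of 6 in DN3, 0 were above and 2 below (median −0.05). Mxd3, a MAX partner, was at 35.7 in KI DN4 against 25.7 in WT DN4 (0.47). The mTORC1 list gave 3 above and 3 below of 9 in DN4 and 4 above and 2 below of 10 in DN3. Of 4 measured genes of glucose and lactate uptake, 1 was above and 0 below in DN4, and 2 above and 0 below in DN3, where Txnip was at 99.0 in KI against 67.0 in WT (0.56).

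The second comparison asked how the genes differed between the stages, DN4 over DN3. Slc7a5 fell in both genotypes, to 71.4 CPM in KI DN4 against 150.0 in KI DN3 (−1.07, −1.15 to −0.995) and to 94.9 in WT DN4 against 199 in WT DN3 (−1.06, −1.15 to −0.98). Myc was at 89.96 in KI DN4 against 149.6 in KI DN3 (−0.73) and at 88.5 in WT DN4 against 152 in WT DN3 (−0.78). Slc7a5 was the 1 of 6 measured members called in each, where 7.73% of all genes were called in KI and 8.23% in WT. In KI, 4 of the 6 had an interval below 0 and 1 above, beside 46.5% below and 31.5% above over all genes; in WT the members gave the same counts, beside 38.9% below and 33.9% above.

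The stage difference in Myc and Slc7a5 depended on which clusters were counted. Without clusters 2, 5 and 7, Myc was at −0.49 in KI and −0.43 in WT, and Slc7a5 at −0.88 in KI and −0.89 in WT, so that no member was called. Over cells called G1, Myc was at −1.97 in KI and −1.42 in WT. Within cluster 3 Myc was at 113 CPM in KI DN4 against 219 in KI DN3 (−0.96) and at 129 in WT DN4 against 175 in WT DN3 (−0.45). In cluster 4 it was at 98.7 in KI DN4 against 138 in KI DN3 (−0.48) and at 102 in WT DN4 against 157 in WT DN3 (−0.62). All 4 of these intervals were below 0. Slc7a5 in cluster 4 was at 72.8 in KI DN4 against 127 in KI DN3 (−0.80) and at 101 in WT DN4 against 133 in WT DN3 (−0.39), and in cluster 3 at −0.46 in KI and −0.18 in WT, the last with an interval that included 0.

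None of the other members was called between the stages, and Slc2a3 and Hk2 stayed below 20 CPM. Tfrc was at 27.3 CPM in KI DN4 against 19.7 in KI DN3 (0.47) and at 22.6 in WT DN4 against 17.3 in WT DN3 (0.39), yet within clusters 3 and 4 its 4 ratios lay between −0.11 and 0.01. Odc1 was at 0.03 in KI and 0.09 in WT over whole libraries, while within cluster 4 it was at 118 in KI DN4 against 147 in KI DN3 (−0.32) and at 119 in WT DN4 against 135 in WT DN3 (−0.18). Slc3a2 was at −0.50 in KI and −0.35 in WT. Slc38a2 was at −0.21 in KI and −0.11 in WT, and Slc2a1 at 0.14 in KI and 0.00 in WT. Slc2a3 was at 7.83 in KI DN4 against 4.15 in KI DN3 and at 9.20 in WT DN4 against 4.15 in WT DN3, and without clusters 2, 5 and 7 its log2 ratio was −0.26 in KI and 0.29 in WT, against 0.92 in KI and 1.15 in WT with them. Hk2 was at 12.1 in KI DN4 against 2.98 in KI DN3 (2.02, 1.66 to 2.40) and at 6.09 in WT DN4 against 4.90 in WT DN3 (0.31, −0.09 to 0.72). Within clusters Hk2 in KI was at 1.13 in cluster 3 (0.39 to 1.96) and 0.81 in cluster 4 (0.25 to 1.39). In WT it was at −0.59 in cluster 3 and −0.19 in cluster 4, with intervals that included 0.

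**Figure D3:**
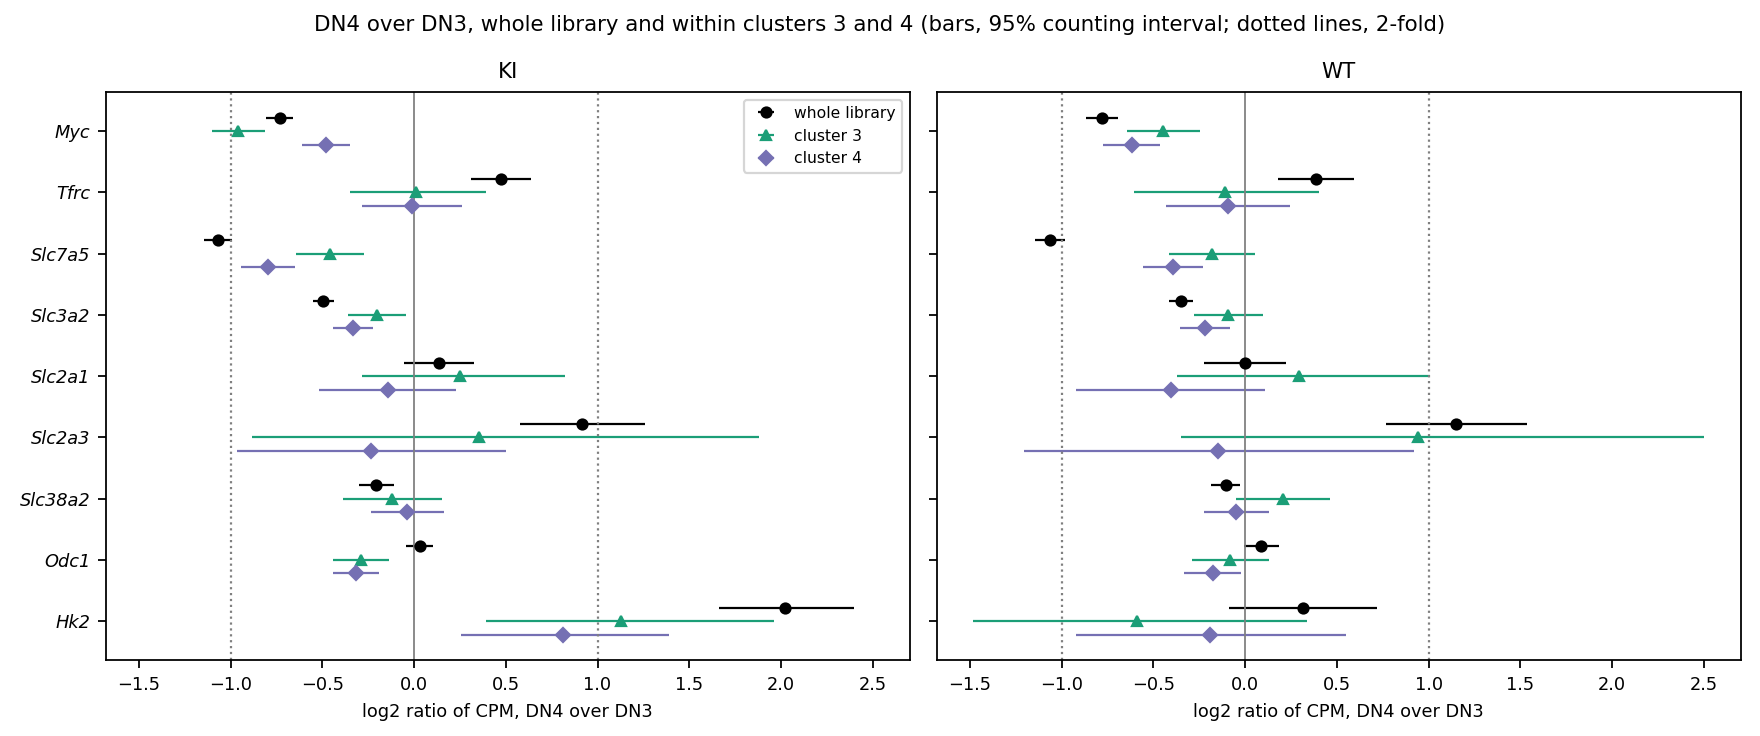
Log2 ratio of CPM, DN4 over DN3 (horizontal axis), for each gene (rows) in KI on the left and WT on the right; black points are whole libraries, triangles cluster 3 and diamonds cluster 4, with 95% counting intervals. Slc7a5 sits near −1.07 in KI and −1.06 in WT for whole libraries and between −0.80 and −0.18 within clusters, and Tfrc returns to about 0 within clusters.

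Receptor sequences gave a reading that did not enter the choice of genes. DN3 cells were split by whether the same barcode held a productive β chain contig. In cluster 6, Myc was at 147 CPM in 198 KI cells with a chain against 111 in 92 KI cells without (0.41, 0.07 to 0.75), and at 192 in 173 WT cells with against 129 in 70 WT cells without (0.58, 0.25 to 0.91). Myc was thus higher in cells with a chain in both libraries, at median depths of 8876.5 against 9751 UMIs in KI and 11127 against 10105 in WT. Myc in cluster 6 also differed by cell cycle call, at 184 CPM in G1 against 124 in S in KI, with intervals apart. In WT it was at 201 in G1 against 167 in S, with overlapping intervals. The part of phase in the split by chain was not tested. Slc7a5 was at 189 with against 133 without in KI (0.51, 0.21 to 0.82) but at 194 with against 182 without in WT (0.09, −0.19 to 0.38). Il2ra was at 358 with against 441 without in KI and at 371 with against 409 without in WT. In KI, Cd69 (59.2 with, 94.6 without), Top2a (64.1 with, 93.6 without) and Slc2a1 (15.1 with, 30.5 without, from 28 UMIs each) were also lower in cells with a chain. In WT, Cd69 was at 77.0 with against 70.4 without, Top2a at 60.0 with against 71.7 without and Slc2a1 at 19.99 with against 19.93 without, each with an interval that included 0.

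In clusters 0 and 1, where 118 of 2469 KI cells and 155 of 2255 WT cells had a chain, Myc was at 152 with against 145 without in KI (0.06, −0.24 to 0.35) and at 162 with against 139.7 without in WT (0.21, −0.03 to 0.45). There Slc7a5 was at 138 with against 167 without in KI (−0.27, −0.58 to 0.03) and at 193 with against 236 without in WT (−0.29, −0.51 to −0.07). No difference in Tfrc, Slc3a2, Slc38a2, Odc1 or Hk2 was detectable at this depth in either set of cells. A missing contig may also be a chain that was not captured.

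**Figure D4:**
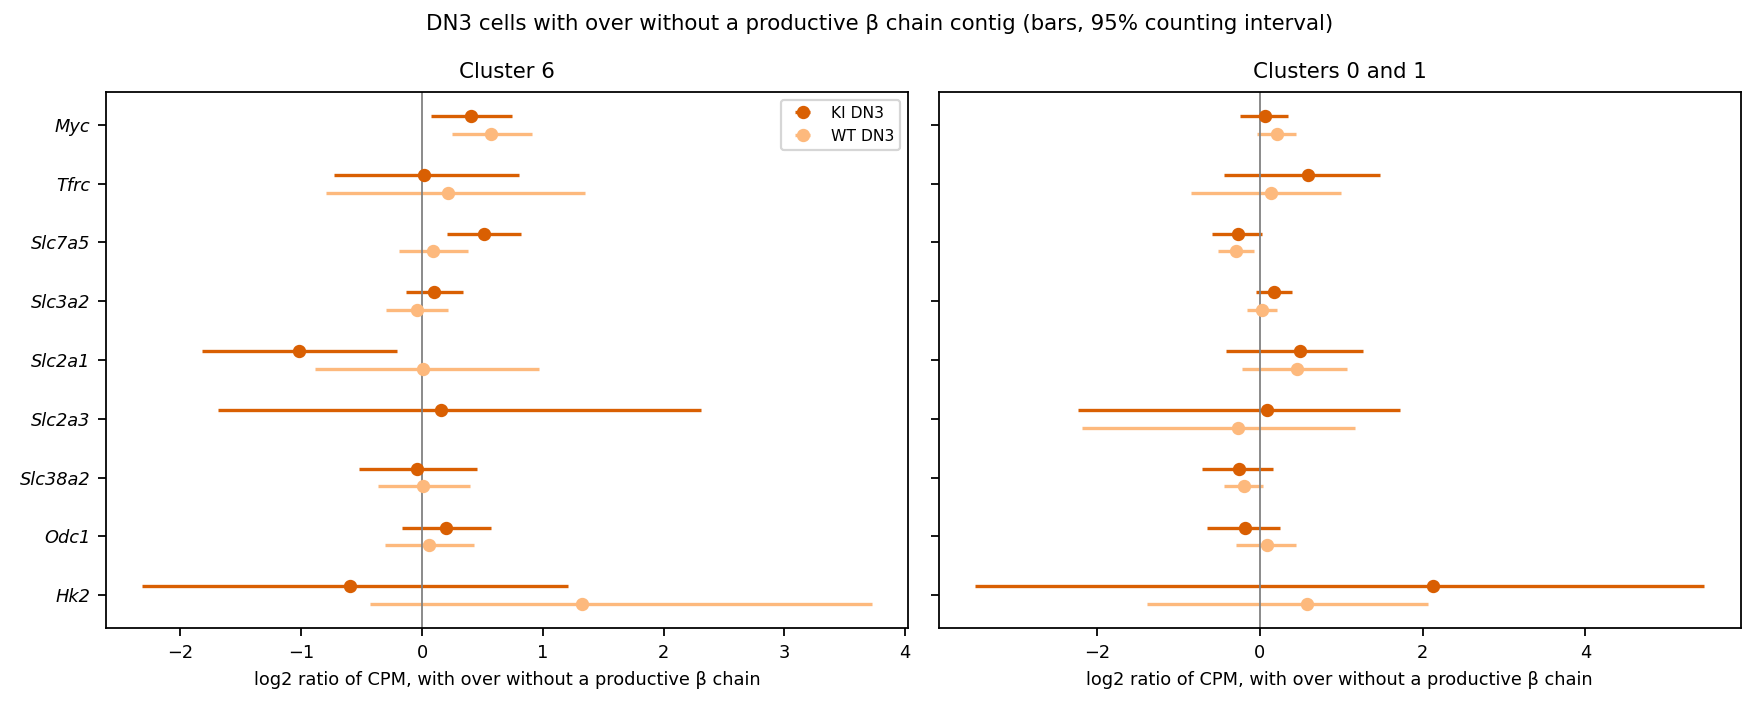
Log2 ratio of CPM in DN3 cells with over without a productive β chain contig (horizontal axis) for each gene (rows), in cluster 6 on the left and clusters 0 and 1 on the right, with 95% counting intervals for KI and WT; a gene with 3 or fewer UMIs on both sides is not drawn. In cluster 6 the Myc points, 0.41 for KI and 0.58 for WT, have intervals above 0.

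By the deposited cell cycle calls, Myc in cluster 4 was higher in cells called G2/M than in cells called S. It was at 118 against 68.2 CPM in KI DN4, 112 against 95.9 in WT DN4, 167 against 111 in KI DN3 and 194 against 130 in WT DN3, and the intervals overlapped in WT DN4 alone. Slc7a5 in the same cells was at 71.4 against 75.1 in KI DN4 and 123 against 130 in KI DN3, with overlapping intervals. In WT it was at 86.2 against 110.5 in DN4, with intervals apart, and at 130.4 against 134 in DN3, with overlapping intervals. In cluster 3 of KI DN4 Myc ran the other way, at 84.8 in 107 cells called G2/M against 118 in 638 called S. How the calls were made is not given in the sources used here.

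Across the 19 library-by-cluster groups of 50 cells or more, Pearson's r of log2(CPM + 1) describes which of 5628 genes had a profile most like that of Myc. The 10 highest were Lyrm9 (0.93), Colgalt1 (0.91), Nmd3 (0.89), Sod2 (0.89), Slc19a1 (0.88), Tmed5 (0.87), Ppan (0.87), Palm (0.86), Tmem41a (0.85) and Bmyc (0.85). Of these, Nmd3 and Ppan act in ribosome assembly and Slc19a1 carries reduced folate. Among the members, Odc1 was nearest to Myc (0.65) and Slc2a3 furthest (−0.81). The nearest to Odc1 were Tomm5 (0.98), Chchd4 (0.97) and Cct2 (0.97), and the nearest to Slc7a5 were Myl10 (0.95), Srp68 (0.94) and Cpne2 (0.93). Tfrc was most like Prelid1 (0.93), Psmc1 (0.92) and Cox5a (0.91), and Slc38a2 most like Gm11808 (0.92), Rps27 (0.91) and Gm9493 (0.90). Groups share libraries and depth, so these values are descriptions, and Rps27 and Ftl1 have near-identical copies among which reads may be split.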

How the data were processed

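The authors deposited raw UMI counts per gene and cell (15653 genes, 10237 cells, no normalisation), already filtered by a rule not given in the sources used here, with cluster numbers and cell cycle phases. The build mm10 and 2 versions of Cell Ranger, 3.1.0 and 6.0.1, are named per the submitters' processing notes, with no role given. The deposited receptor contig tables hold UMI counts per contig, per the file headers; the clonotype tables were not used.

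Members and lists were chosen with earlier results of these data known. UMIs were summed over cells and scaled to CPM. Ratios have exact Poisson intervals (conditional binomial, 95%), which cover counting error only; 0 UMIs were set to a floor of 3 counts. A gene was called at 2-fold or more with 20 CPM in either library. With 1 library per group no test was possible within a stage or genotype, and a fit of both factors across the 4 libraries was not made. Library totals were 30402236 (KI DN4), 16411164 (WT DN4), 25525613 (KI DN3) and 22652454 UMIs (WT DN3). Groups under 50 cells were left out of cluster comparisons. Scrublet in scanpy 1.11.5 called 73 cells (0.713%) as doublets; they were kept, and DN3 rates of 0.152% (KI) and 0.139% (WT) may miss doublets. Shares use cells thinned to 2000 UMIs and exact binomial intervals. Named genes were the members, up to 3 per list with the largest ratio whose interval excluded 0, and the genes most like each member. Alternatives used edgeR 4.0.16 and DESeq2 1.42.0 size factors only. Positions came from GENCODE vM21 and promoters from RefSeq. The ratio and its interval were tested on simulated data.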

Additional observations from a re-analysis of the deposited data

Results flagged for a closer look

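Hk2 had ratios of KI over WT on opposite sides in the 2 stages, with a log2 ratio of 0.990 in DN4 (12.1 CPM in KI, 6.09 in WT) and −0.719 in DN3 (2.98 in KI, 4.90 in WT). Nme1, a nucleotide kinase gene of the Myc target list, did the opposite, with −0.849 in DN4 (94.3 CPM in KI, 169.9 in WT) and 1.159 in DN3 (223 in KI, 99.95 in WT). Nme2 is a near-identical paralogue, so how reads were split between them makes the Nme1 values uncertain. The difference between stages was not tested in either case. Of 5287 genes at 20 CPM in both comparisons, 298 or 5.64% had intervals on opposite sides. Hk2 was below 20 CPM in both and is not among the 5287, so this share can be set beside Nme1 only.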

How the results depend on the processing

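The count of members called in KI over WT was 1 (Slc38a2) in DN3 under every alternative run, and 1 in DN4 under every alternative but 1: with cells of the G1 phase only it was 2, Slc7a5 (−1.09) joining Slc38a2. Calls in DN4 over DN3 moved more. In WT, where the count was 1 (Slc7a5), it was 2 with a minimum of 5 CPM or none (Slc2a3 added), with a 1.5-fold call, with G1 cells or with the mean of per-cell CPM (Myc added each time), and 0 without clusters 2, 5 and 7 or with clusters 3 and 4 only. In KI it was also 1 (Slc7a5), and became 2 at 5 CPM or no minimum (Hk2 added), 2 at 1.5-fold or by per-cell CPM (Myc added), 3 in G1 cells, and 0 by trimmed means, by DESeq2 size factors, without clusters 2, 5 and 7 or with clusters 3 and 4 only. The comparisons by clusters 0 and 1 or 3 and 4 alone were chosen after seeing the data. Trimmed means moved the median of all genes to 0.07 in KI over WT in DN4, against −0.05, and to 0.06 in DN4 over DN3 in KI, against −0.07; Slc7a5 was then at −0.95 and Slc38a2 in DN4 at −1.09. No ratio that had been called changed sign. Of the 36 ratios of single members over whole libraries, 23 moved beyond their counting interval in G1 cells, 19 by per-cell CPM, 18 without clusters 2, 5 and 7, and 10 by DESeq2 size factors, while none moved without doublets; all 35 β chain ratios stayed within theirs when a contig needed 3 UMIs. Beyond the settings named, the cause of these moves was not tested. A fit of genotype blocked by stage over the 4 libraries was not made. Slc2a3 and Hk2 rest on 76 to 368 UMIs a library, so their ratios within clusters are the least precise.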

Other observations

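Of the 44 genes lower in KI in all 8 within-cluster comparisons, 6 (13.6%) lie on chromosome 15, where 4.04% of the measured genes lie: Pabpc1, Sla, Apobec3, Tob2, Slc38a2 and Pcbp2. Of the 25 genes higher in KI in all 8, 2 (8.0%) lie on chromosome 15, Myh9 and Poldip3, and 0 on chromosome 16. Slc38a2 is at GRCm38 chromosome 15, 96687392 to 96699730. Gsk3b is on chromosome 16, which gave 1 of the 44 (2.27%), Cd96, where 3.185% of the measured genes lie. Myc, also on chromosome 15 (61985391 to 61990374), was not among them. The 44 also held Ftl1 (median −0.73 over the 8 comparisons) and Cd28 (−0.51). The lowest medians were those of Gm47283 (−4.23), Cd96 (−3.93) and Apobec3 (−2.16). These genes were picked out after their values were seen, and their spread over chromosomes was not tested.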
